A study of Cricetulus griseus with 16 samples.

Results

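The genes described here encode chaperones of the lumen of the endoplasmic reticulum (ER), with the HSP70 protein BiP (Hspa5) at their centre. They were chosen by name as Hspa5, Hsp90b1, Calr, Canx, Hyou1, Sdf2l1, Creld2, Manf, Hspa13 and Sil1. All 10 names were found, each once, among the 20824 genes counted, and 0 were absent. RNA was sequenced from CHO cells (ATCC CCL-61), a Chinese hamster ovary line, that had been plated a day earlier. The 4 groups were unheated cells at 37 °C and cells heated for 1 h or 6 h to 40 °C, or for 1 h to 42.5 °C. The labels give no time for the unheated cells, so time in culture cannot be told apart from time at 40 °C. Each group had 4 cultures, lettered A to D in the labels and described by the study as biological repeats. No other agent or genetic change was part of the design. The comparisons asked how the transcriptome responds to mild heat of short or long duration and to moderate heat. One line in culture limits the model to a single genetic background. In bulk RNA, fewer cells with a transcript and less of it per cell cannot be told apart.

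Proteins that enter the secretory pathway fold in the ER with the help of these chaperones. BiP binds exposed hydrophobic stretches of its clients in an ATP-driven cycle, which J-domain proteins start and nucleotide exchange factors reset. When unfolded proteins build up, the sensors IRE1, PERK and ATF6 start the unfolded protein response (UPR), a programme known for raising transcripts of ER chaperones.

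Each library held between 10504192 and 14668365 counts. Levels are given in CPM, counts divided by library size and scaled by TMM, which evens out differences in composition between libraries. At this depth the floor of 3 counts was between 0.204 and 0.296 CPM, a limit for counting error only, and every member lay above it. No gene lengths went into the CPM, so levels were not compared between genes. As for the cell type, the mesenchymal markers Vim and Col3a1 were at 1820 to 2680 and 82.4 to 120 CPM, but Col1a1 had at most 2 counts. Of the epithelial markers, Epcam had at most 1 count in a library, whereas Cdh1 had 20 to 48 counts (1.7 to 4.14 CPM). The granulosa cell markers Foxl2, Fshr and Cyp19a1 had 0 counts in all 16 libraries, which at this depth allows at most the floor of 3 counts. Amh, the remaining granulosa cell marker on the list, was at 1.9 to 7.12 CPM.

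One control stood apart. Across 10565 genes, 37 °C replicate D correlated with the other controls at r between 0.974 and 0.9764, and r among the remaining 3 controls was 0.9954 to 0.9961. The study set 1 control aside, and replicate D was taken to be that one and is left out below unless stated. Its member levels lay outside the range of replicates A, B and C for all 10 genes. In replicate D, Manf was at 1.41 times their mean, Hspa5, Hsp90b1, Calr, Creld2, Sdf2l1 and Sil1 were at 1.21 to 1.25 times, and Canx, Hyou1 and Hspa13 were at 0.82, 0.914 and 0.91 times. Results against 37 °C are therefore given with it too where a count of members or list genes past the threshold changed. With all 4 controls, 0.0383%, 10.7% and 18.2% of all genes tested passed the adjusted p after 1 h at 40 °C, 6 h at 40 °C and 1 h at 42.5 °C, against 1.64%, 29.4% and 43.1% without replicate D.

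The chaperone transcripts rose most after 6 h at 40 °C. Against 37 °C, 8 of the 10 members were higher and 1 was lower in that group at an adjusted p under 0.05, by edgeR's quasi-likelihood test with Benjamini-Hochberg adjustment over all genes, from which every adjusted p below comes unless another tool is named. Among all 10499 genes tested, 14.7% were higher and 14.8% were lower by this criterion. The 4 libraries lay above control replicates A, B and C for 8 members and below them for Hspa13, against 18.6% and 17.6% of all genes. They lay above all 4 controls for the same 8, against 12.1% of all genes. Hspa5, Manf, Hsp90b1 and Sdf2l1 also passed the fold threshold of 1.5 and were called, 4 of 10 members against 1.45% of all genes called higher. The median log2 fold change of the 10 members was 0.52, and that of all genes tested was 0.001. The members' share of all counts in a library was 0.815% ± 0.0137 (SD, n = 3) at 37 °C and 0.888% ± 0.0393 (n = 4) after 1 h at 40 °C. It was 1.36% ± 0.164 (n = 4) after 6 h at 40 °C and 0.89% ± 0.0361 (n = 4) after 1 h at 42.5 °C. Control replicate D, left out of the 37 °C mean, had a share of 0.908%. That lies inside the ranges after 1 h at 40 °C (0.835% to 0.929%) and at 42.5 °C (0.849% to 0.937%). Members with the most counts weigh most in this share.

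**Figure D1:**
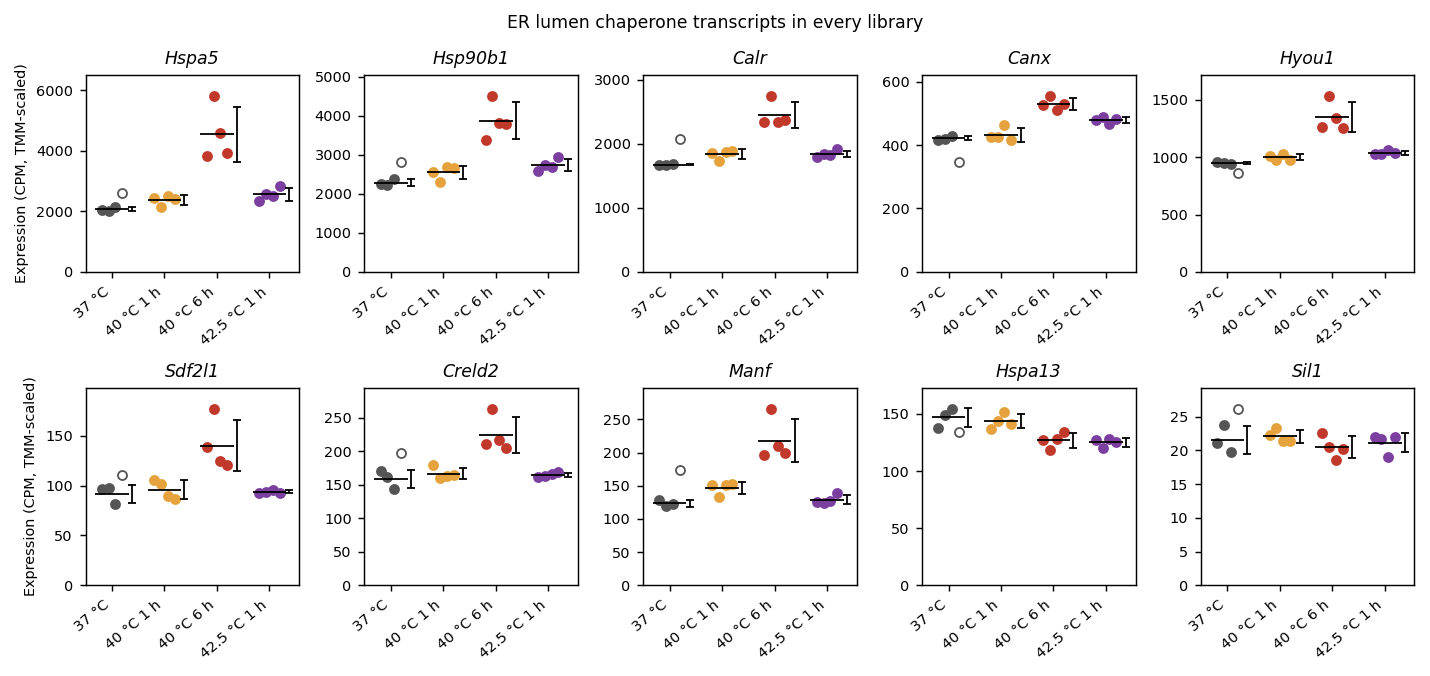
Expression of each ER lumen chaperone (CPM, TMM-scaled, linear axis from 0) in the 16 libraries by heat treatment. Points are single libraries in the order A to D, the open circle is 37 °C replicate D, lines are group means and bars are 1 SD, both without that library. The 4 libraries held for 6 h at 40 °C lie above every 37 °C library for 8 of the 10 genes.

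Hspa5 (ENSCGRG00001013777), which encodes BiP, had the largest rise among the members. At 37 °C it was at 2059, 2019 and 2156 CPM in replicates A, B and C, and at 2606 CPM in replicate D. After 1 h at 40 °C its levels in replicates A to D were 2453, 2153, 2522 and 2397 CPM. After 6 h they were 3821, 5820, 4600 and 3940 CPM, all above every other library of the study. At 42.5 °C they were 2335, 2558, 2513 and 2834 CPM, above replicates A, B and C but overlapping replicate D. The means were 2080 ± 70.2 (SD, n = 3), 2380 ± 161 (n = 4), 4550 ± 916 (n = 4) and 2560 ± 206 CPM (n = 4) in the same order of groups. After 6 h at 40 °C the log2 fold change reached 1.13 (SE 0.10, adjusted p = 1.6e-06), a 2.18-fold rise that ranked number 31 of all genes tested when ordered from the largest rise. With all 4 controls the rise was 1.04 (adjusted p = 0.00392), and without the highest library, 40 °C 6 h replicate B, it was 0.98.

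Hsp90b1 (ENSCGRG00001023543) encodes GRP94, the HSP90 protein of the ER. It was at 2255, 2228 and 2394 CPM in control replicates A, B and C and at 2820 CPM in D. After 6 h at 40 °C it reached 3388, 4518, 3809 and 3790 CPM in replicates A to D. These 4 values lay above all other libraries, which spanned 2228 to 2941 CPM. This was a log2 rise of 0.75 (SE 0.07, adjusted p = 2.51e-06), or 1.69-fold, and 0.67 with all 4 controls. The shorter treatments gave 2551, 2316, 2703 and 2654 CPM at 40 °C and 2577, 2744, 2691 and 2941 CPM at 42.5 °C, so the groups heated for 1 h overlapped each other.

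Of the nucleotide exchange factors of BiP, one passed the test after 6 h at 40 °C. Hyou1 (ENSCGRG00001003994), a large HSP70 relative that resets BiP, was at 942 to 956 CPM in control replicates A, B and C, at 867 CPM in D, and at 1266, 1537, 1339 and 1251 CPM after 6 h at 40 °C. It rose by 0.50 (SE 0.06, adjusted p = 2.32e-05), short of the fold threshold. Sil1 (ENSCGRG00001016820), the other exchange factor, was at 18.6 to 22.6 CPM after 6 h at 40 °C and at 19.8 to 23.9 CPM in control replicates A, B and C. The groups overlapped, and the log2 fold change was -0.08 (SE 0.09, adjusted p = 0.517). Sil1 had the lowest counts of the members, 196 to 327 per library, and its SE was close to that of the called genes.

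Calr and Canx encode calreticulin and calnexin, the soluble and the membrane-bound lectin that hold glycoproteins while they fold. Calr (ENSCGRG00001020181) was at 1676, 1667 and 1688 CPM in control replicates A, B and C, at 2074 CPM in D, and at 2345, 2752, 2337 and 2380 CPM after 6 h at 40 °C, a rise of 0.55 (SE 0.06, adjusted p = 5.89e-06). Canx (ENSCGRG00001017710) was at 416, 419 and 428 CPM in control replicates A, B and C and at 346 CPM in D. It was at 525, 556, 511 and 530 CPM after 6 h at 40 °C and rose by 0.33 (SE 0.05, adjusted p = 5.63e-05). Both genes had all 4 of these libraries above all 4 controls, and neither reached a fold of 1.5.

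Sdf2l1, Manf and Creld2 encode small ER proteins that work with BiP or are known from ER stress. Manf (ENSCGRG00001021555), a secreted neurotrophic factor that binds BiP, was at 129, 119 and 123 CPM in control replicates A, B and C and at 174 CPM in D. After 6 h at 40 °C it was at 197, 266, 211 and 200 CPM, above every other library. It rose by 0.81 (SE 0.08, adjusted p = 3.55e-06), or 1.76-fold, and by 0.68 with all 4 controls. Sdf2l1 (ENSCGRG00001023473), a partner of the J-domain protein Dnajb11, was at 96.4, 98 and 81.5 CPM in control replicates A, B and C, at 111 CPM in D, and at 139, 177, 124 and 120 CPM after 6 h at 40 °C. Its groups did not overlap, and the rise was 0.60 (SE 0.10, adjusted p = 0.000381), or 1.52-fold, just inside the threshold. It fell below the fold threshold, with an adjusted p still under 0.05, at 0.53 with all 4 controls, at 0.53 without 37 °C replicate C and at 0.47 without 40 °C 6 h replicate B. Creld2 (ENSCGRG00001023675), an ER stress-inducible protein with EGF-like domains, was at 205 to 263 CPM in this group and at 144 to 170 CPM in control replicates A, B and C, with 198 CPM in D. Creld2 rose by 0.50 (SE 0.08, adjusted p = 0.000154), 1.41-fold.

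Hspa13 (ENSCGRG00001006769), a short HSP70 relative that holds the ATPase part without the usual substrate-binding part, went the other way. It was at 138, 149 and 154 CPM in control replicates A, B and C, at 134 CPM in D, and at 127, 118, 128 and 134 CPM after 6 h at 40 °C. Its log2 level fell by 0.22 (SE 0.05, adjusted p = 0.00634) with replicates A, B and C as controls. With all 4 controls the difference was -0.18 (adjusted p = 0.115), and the groups overlapped. At 42.5 °C Hspa13 was at 127, 120, 128 and 125 CPM, below all 4 controls.

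**Figure D2:**
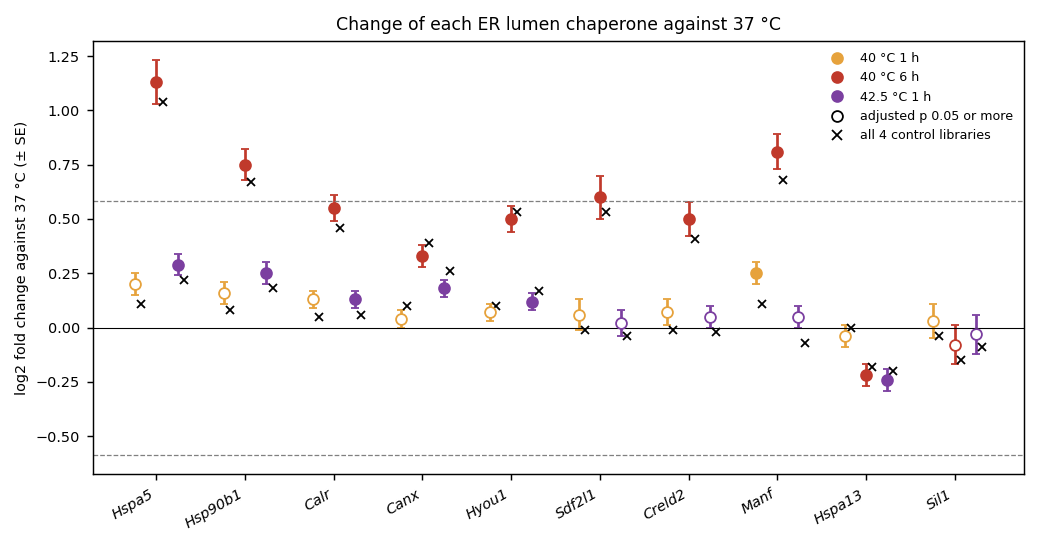
log2 fold change of each member against 37 °C (circles, bars ± SE) after 1 h or 6 h at 40 °C and after 1 h at 42.5 °C, with the controls A, B and C. Open circles have an adjusted p of 0.05 or more, dashed lines mark a fold of 1.5 and crosses give the value with all 4 controls. The circles of Hspa5, Manf, Hsp90b1 and Sdf2l1 at 40 °C for 6 h lie above the upper line, that of Sdf2l1 at 0.60.

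After 1 h at 40 °C the members were close to the controls. None was called (0 of 10, against 0.334% of 10494 genes), by edgeR or by DESeq2, and 4 had an unadjusted p under 0.05 in edgeR. Manf alone passed the adjusted p, at 0.25 (SE 0.05, adjusted p = 0.0276), against 1.07% of all genes that were higher by this criterion. Its levels were 151, 133, 151 and 153 CPM in replicates A to D, all above control replicates A, B and C but below control D. With all 4 controls the value was 0.11 (adjusted p = 0.929). The adjusted p also rose above 0.05, to between 0.0586 and 0.164, without any one of 37 °C replicates B and C and of 40 °C 1 h replicates A, C and D. Hspa5 was at 0.20 (SE 0.05, adjusted p = 0.0797), and without 40 °C 1 h replicate B, its lowest library in this group, at 0.24 (adjusted p = 0.0086). Leaving out the same library brought Hsp90b1 from 0.16 (adjusted p = 0.173) to 0.20 (adjusted p = 0.0327). Neither gene passed the adjusted p when any other single library was left out. Both values were smaller with all 4 controls, Hspa5 at 0.11 (adjusted p = 0.926) and Hsp90b1 at 0.08 (adjusted p = 0.929). All 4 libraries lay above control replicates A, B and C for Calr, Hyou1 and Manf, 3 of 10 members against 6.8% of all genes. With replicate D included this held for Hyou1 only, against 3.53% of all genes. The median log2 fold change of the 10 members was 0.07, and that of all genes was 0.

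Moderate heat gave small shifts. At 42.5 °C for 1 h, edgeR and DESeq2 each called 0 of the 10 members, against 7.51% of 10470 genes in edgeR, and 6 members had an unadjusted p under 0.05. The same 6 passed the adjusted p in edgeR, against 43.1% of all genes, with 5 higher (20.8% of all genes) and 1 lower (22.3%). The libraries did not overlap control replicates A, B and C for the same 6, against 23.1% of all genes above and 22.9% below. Higher were Hspa5 by 0.29 (SE 0.05, adjusted p = 0.000433), Hsp90b1 by 0.25 (adjusted p = 0.000487), Canx by 0.18 (adjusted p = 0.000855), Calr by 0.13 (adjusted p = 0.0106) and Hyou1 by 0.12 (adjusted p = 0.0104, and 0.0534 in 1 fit over all groups). Hspa13 fell by 0.24 (SE 0.05, adjusted p = 0.000724). The median of the 10 members was 0.09, beside -0.002 for all genes. With all 4 controls 0 of the 10 members passed the adjusted p, where 18.2% of all genes did. Hspa5 was then at 0.22 (adjusted p = 0.133), Hsp90b1 at 0.18 (adjusted p = 0.162), Calr at 0.06 (adjusted p = 0.638), Canx at 0.26 (adjusted p = 0.0505), Hyou1 at 0.17 (adjusted p = 0.0903) and Hspa13 at -0.20 (adjusted p = 0.0666). The libraries themselves still did not overlap those of all 4 controls for Canx and Hyou1, which were higher, and for Hspa13, which was lower, so 2 members lay above and 1 below, against 13.4% and 14.8% of all genes. The comparisons with 37 °C share their control libraries, so their values for a member are not independent of each other.

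Manf, Sdf2l1 and Creld2 stayed near the control level at 42.5 °C. Manf was at 125, 125, 127 and 139 CPM, and its change was 0.05 (SE 0.05, adjusted p = 0.39). Sdf2l1 was at 92.5 to 95.9 CPM, at 0.02 (SE 0.06, adjusted p = 0.828), and Creld2 was at 162 to 168 CPM, at 0.05 (SE 0.05, adjusted p = 0.449). These differences did not pass the test, which does not show that the levels were equal.

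Time at 40 °C and dose were then compared directly between heated groups, which do not involve the controls. From 1 h to 6 h at 40 °C, 8 members were higher and 1 was lower at an adjusted p under 0.05, against 9.45% and 9.04% of 10439 genes. Hspa5 rose by 0.93 (SE 0.10, adjusted p = 2.15e-05) and Hsp90b1 by 0.60 (SE 0.07, adjusted p = 8.88e-05), and these were the members called, 2 of 10 against 0.556% of all genes called higher. The 4 libraries at 6 h lay above all 4 at 1 h for 8 members and below them for Hspa13, against 10.9% and 10.3% of all genes, and overlapped for Sil1. Hsp90b1 was just past the fold threshold, with 0.56 without 40 °C 1 h replicate B and 0.52 without 40 °C 6 h replicate B. Manf at 0.57 (SE 0.08, adjusted p = 0.000193) and Sdf2l1 at 0.54 (SE 0.10, adjusted p = 0.0013) lay just below it. Manf crossed it, at 0.59 to 0.62, without 40 °C 1 h replicate A or D or 6 h replicate A, C or D, and Sdf2l1, at 0.60 to 0.61, without 1 h replicate A or 6 h replicate C or D. Hspa13 fell by 0.18 (SE 0.05, adjusted p = 0.0198), with an adjusted p of 0.0679 without 1 h replicate C and of 0.0645 without 6 h replicate B.

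Set against the long treatment at 40 °C, 8 members were lower after 1 h at 42.5 °C at an adjusted p under 0.05, against 24.5% of 10427 genes. These groups differ in both temperature and time, whose effects cannot be told apart here. Called lower were Hspa5 by -0.83 (SE 0.10, adjusted p = 3.27e-06), Manf by -0.76 (SE 0.08, adjusted p = 6.75e-07) and Sdf2l1 by -0.59 (SE 0.09, adjusted p = 4.56e-05), 3 of 10 members against 5.72% of all genes called lower. Sdf2l1 sat at the fold threshold here too, and was at -0.58 without 42.5 °C replicate A, B or D, at -0.45 without 40 °C 6 h replicate B, and at -0.58 with DESeq2's size factors, with its Wald test and in 1 fit over all groups, each short of the fold threshold. Hspa13 (-0.03, adjusted p = 0.68) and Sil1 (0.05, adjusted p = 0.682) did not pass.

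At 1 h the temperatures were compared with each other. Between 42.5 °C and 40 °C, edgeR and DESeq2 each called 0 of 10 members, against 5.27% of 10441 genes in edgeR, and 3 had an unadjusted p under 0.05. Those 3 also passed the adjusted p, against 36.1% of all genes, though Manf had an adjusted p of 0.0548 in 1 fit over all groups. Canx was higher at 42.5 °C by 0.14 (SE 0.04, adjusted p = 0.0124), while Manf fell by 0.19 (SE 0.05, adjusted p = 0.0087) and Hspa13 by 0.20 (SE 0.04, adjusted p = 0.00178). For Hspa5 the difference was 0.10 (SE 0.06, adjusted p = 0.195), with overlapping libraries.

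The rise after 6 h at 40 °C was uneven between cultures. Replicate B of that group was the highest of the 4 for 8 of the 10 members, and the lowest for Hspa13. Relative to the mean of control replicates A, B and C, Hspa5 stood at 0.88, 1.49, 1.15 and 0.92 on the log2 scale in replicates A to D, Manf at 0.67, 1.10, 0.77 and 0.69, and Hsp90b1 at 0.56, 0.98, 0.73 and 0.73. Canx was more even, at 0.32, 0.40, 0.28 and 0.33. Without replicate B the group had 3 called members, Hspa5, Manf at 0.71 and Hsp90b1 at 0.67, while 2.37% of all genes were called in place of 3.11%.

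**Figure D3:**
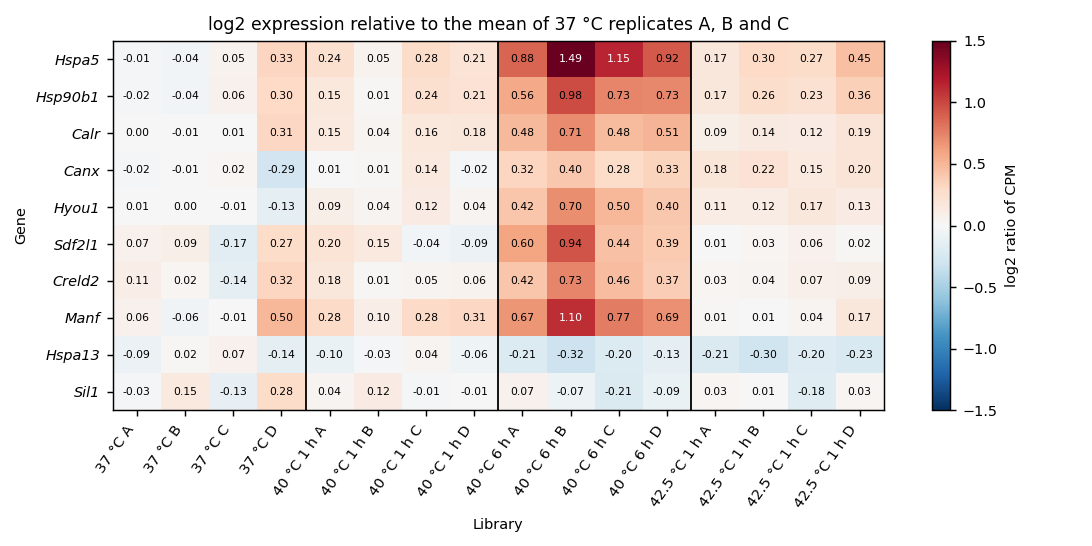
log2 ratio of each member's CPM to its mean in 37 °C replicates A, B and C, for the 16 libraries (columns) and 10 genes (rows), coloured blue below 0 and red above it. Replicate B at 40 °C for 6 h holds the highest value of Hspa5, 1.49, and control replicate D shows Manf at 0.50 and Canx at -0.29.

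The members also varied together inside the groups. After subtracting each group's mean log2 CPM, the 15 libraries' deviations correlated with those of Hspa5 at 0.93 for Hsp90b1 and Manf, 0.89 for Calr, 0.88 for Hyou1 and 0.70 for Creld2. The values were lower for Canx (0.46) and Sdf2l1 (0.45) and negative for Sil1 (-0.30) and Hspa13 (-0.42), where the median over all genes was 0. With control D the figures for Hyou1 and Canx dropped to 0.52 and -0.15, and that for Sil1 turned from negative to 0.05. These are descriptions over libraries that share groups and depth, and the large spread after 6 h at 40 °C carries much weight in them.

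**Figure D4:**
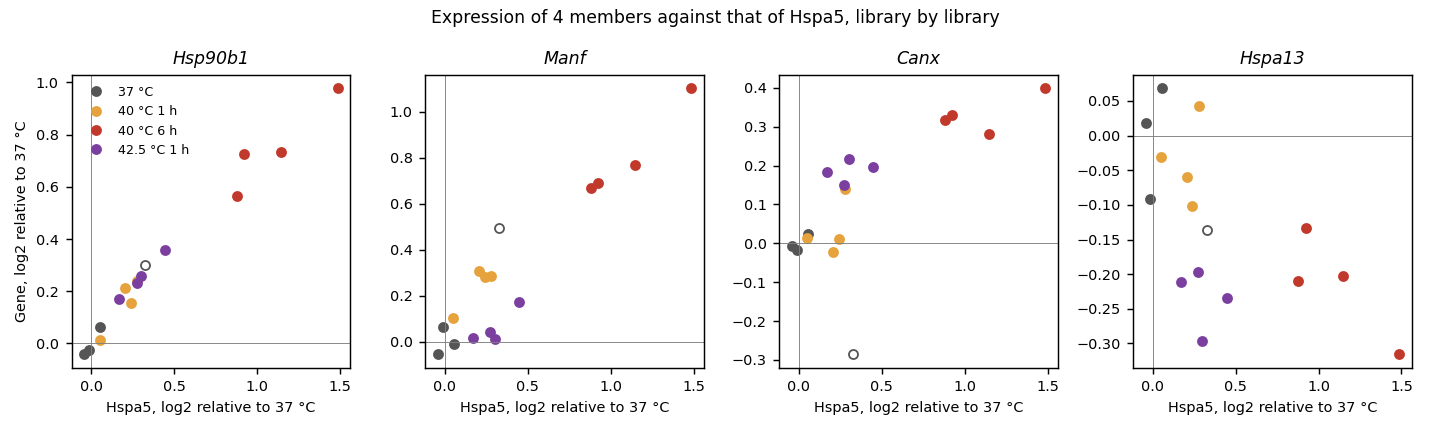
log2 level of Hsp90b1, Manf, Canx and Hspa13 (vertical axes, each with its own scale) against that of Hspa5 (horizontal axis), both relative to the mean of 37 °C replicates A, B and C. Each point is 1 library, coloured by treatment, and the open circle is control replicate D, where Canx lies at -0.29.

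Over all 15 libraries, without subtracting group means, the gene most like Hspa5 was Pdia4, a disulfide isomerase of the ER, with Pearson's r of 0.994 among 8482 other genes with a mean of at least 10 CPM. Hsp90b1 (0.99), Hyou1 (0.987) and Calr (0.985) came at ranks 2, 3 and 4. Manf (0.952) was at rank 14, Creld2 (0.945) at 23, Canx (0.887) at 109 and Sdf2l1 (0.88) at 128, whereas Sil1 (-0.422) and Hspa13 (-0.614) were negative. The next genes outside the member list were Necap1 (0.965), Rbm26 (0.962), Dhx57 (0.961), Dcakd (0.96), Zfp423 (0.959), Tars2 (0.957), Ythdc1 (0.957), Dnajb11 (0.956) and Kmt5a (0.956). The points share 4 groups, so any gene that was high after 6 h at 40 °C scores well.

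The wider ER folding machinery was followed in lists written by function. After 6 h at 40 °C, 14.7% of all genes tested were higher and 14.8% lower at an adjusted p under 0.05, and 1.45% were called higher. Among 7 J-domain co-chaperones, which hand clients to BiP, 3 rose and 1 fell after 6 h at 40 °C and 0 were called. Dnajc3 rose by 0.57 (SE 0.06, adjusted p = 2.64e-06), Dnajb11 by 0.42 (SE 0.06, adjusted p = 0.000147) and Dnajb9 by 0.31 (SE 0.11, adjusted p = 0.0433), while Dnajc25 fell by 0.43 (SE 0.08, adjusted p = 0.00121). Among 11 disulfide isomerases and oxidases, 5 rose, and Pdia4 (0.97, SE 0.09, adjusted p = 1.09e-06) and Pdia3 (0.61, SE 0.07, adjusted p = 6.14e-06) were called. Of 6 tested relatives of the members, Sdf2 at 0.46 (SE 0.10, adjusted p = 0.00272) and Creld1 at 0.26 (SE 0.05, adjusted p = 0.00116) rose, while Clgn, the testis relative of calnexin, was at 0 counts in both groups. Including control D, 10.7% of all genes passed in either direction and 2.09% were called. In that fit 2 J-domain genes were higher (1 of them called) and 1 was lower. There, 4 isomerases and oxidases were higher (1 called), and 0 relatives passed, so the rises of Sdf2 and Creld1 were lost. With controls A, B and C, median log2 fold changes were 0.11, 0.10 and 0.16 for these lists, beside 0.52 for the members and 0.001 for all genes.

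Other steps moved in mixed directions after 6 h at 40 °C, where 14.7% of all genes were higher and 14.8% lower. In the glycoprotein folding cycle 1 of 11 genes rose, Mogs (0.45), and 3 fell, Uggt2 (-0.35), Edem2 (-0.20) and Edem3 (-0.12), with a median of -0.02. Of 8 peptidyl-prolyl isomerases 3 rose and 2 fell, with Fkbp2 at 0.28 and Ppic at -0.31. Of 9 UPR sensors and transcription factors, Xbp1 was called higher (0.60, SE 0.09, adjusted p = 0.000116) and Atf4 lower (-0.75, SE 0.07, adjusted p = 2.68e-06), while Ddit3 rose by 0.47 and Atf6 fell by 0.33. Selenos (0.31) was the 1 gene of 8 in ER-associated degradation that passed, and neither of the retrieval receptors Kdelr2 and Kdelr3 did. Among 6 cytosolic and mitochondrial counterparts 4 rose, Hsph1 (1.21, called), Hsp90ab1 (0.49), Hspa4 (0.26) and Hspd1 (0.25). Including control D, where 10.7% of all genes passed, the glycoprotein folding cycle had 1 gene higher and 1 lower. The peptidyl-prolyl isomerases had 0 higher and 1 lower, and the UPR genes 1 higher and 1 lower (the latter called). ER-associated degradation had 0 in either direction and the counterparts 2 higher.

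**Figure D5:**
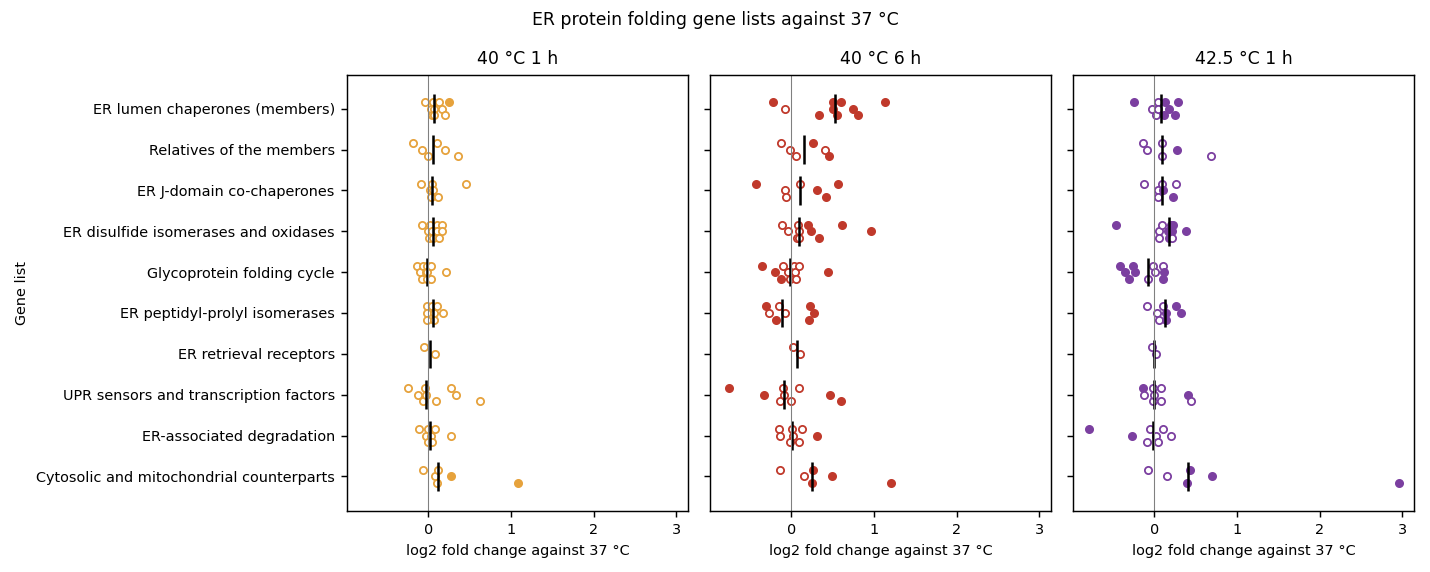
log2 fold change against 37 °C of every tested gene of each list (points) after 1 h at 40 °C, 6 h at 40 °C and 1 h at 42.5 °C, with controls A, B and C. Filled points have an adjusted p under 0.05 and black bars are list medians, which for the members are 0.07, 0.52 and 0.09.

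At 42.5 °C the lists outside the members held 3 called genes. Of all 10470 genes tested, 7.51% were called, and 20.8% were higher and 22.3% lower at an adjusted p under 0.05. The counterparts outside the ER had 2 of 6 genes called, Hsph1 at 2.96 (SE 0.20, adjusted p = 4.19e-08) and Hspd1 at 0.70 (SE 0.09, adjusted p = 2.3e-05), with a list median of 0.42 beside 0.09 for the ER chaperones. That median leaves out Hspa8, Hspa9, Hsp90aa1 and Hspe1, whose names did not match a single gene. Of the 11 isomerases and oxidases 6 rose, led by Pdia3 (0.38), and Txndc11 fell by 0.46. The glycoprotein folding cycle had 2 genes higher and 5 lower, with Edem3 at -0.41, and 4 of 8 peptidyl-prolyl isomerases rose, with Ppib at 0.32. Of the J-domain genes 2 of 7 rose, with Dnajc3 at 0.23, and 1 of 6 relatives did, Sdf2 at 0.27. In ER-associated degradation Syvn1 was called lower (-0.79, SE 0.08, adjusted p = 1.6e-06) and Sel1l fell by 0.27. Of the UPR genes, Ern1 (0.41) rose and Atf6b (-0.13) fell. Including control D, where 18.2% of all genes passed, 2 isomerases and oxidases were higher and 1 lower. The glycoprotein folding cycle had 0 higher and 2 lower, 1 J-domain gene was higher and 1 gene of ER-associated degradation was lower. In that fit 0 relatives, 0 peptidyl-prolyl isomerases and 0 UPR genes passed, and 4 counterparts were higher, 2 of them called. After 1 h at 40 °C, 1.07% of all genes were higher. Of the tested genes in the lists outside the members, only Hsph1 (1.08, SE 0.17, adjusted p = 0.00441) and Hsp90ab1 (0.27, SE 0.06, adjusted p = 0.0324) passed. With all 4 controls neither did, where 0.0383% of all genes passed. The study lists HSPA8 as higher in this comparison, and that gene was not tested here.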

How the data were processed

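RNA of 16 CHO cultures was sequenced as paired reads. In CLC Genomics Workbench the authors trimmed reads, aligned them to CHOK1GS_HDv1 and counted them per gene. They deposited raw counts (whole numbers, not normalized). The annotation release, strand setting and treatment of reads with several places are not given in the sources used here. In RefSeq (CriGri-PICRH-1.0, another build, used for neighbours only), Hsp90b1 overlaps a pseudogene and Sil1 overlaps 2 pseudogenes and a snoRNA, so their counts are less certain.

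Groups came from the labels. Each of 6 comparisons was fitted on its own libraries with the quasi-likelihood test of edgeR 4.0.16 (R 4.3.3), with filterByExpr, TMM and Benjamini-Hochberg adjustment over all genes tested. All 10 members passed the filter. Genes were called at an adjusted p under 0.05 and a fold of at least 1.5. SE is the size of the log2 fold change divided by the root of F. 37 °C replicate D was left out, since the study set 1 control aside. That it is D was taken from an earlier match of counts, not repeated here. Likeness used log2 CPM with a prior count of 2. Members, lists and tests were chosen with earlier results of these data known. Named genes were all members, list genes called or with the largest changes, and the 10 most correlated with Hspa5. Lists took genes by name, and only where the name matched a single gene. Hspa8, Hspa9, Hsp90aa1, Hspe1 and Kdelr1 had no such match, which does not show that they were absent. The alternatives were DESeq2 1.42.0 (size factors or Wald test), other filters, all 4 controls, 1 fit over all groups, a block by replicate letter, glmTreat and each library left out. The scripts were tested on simulated data. Levels per gene length were not computed.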

Additional observations from a re-analysis of the deposited data

Results flagged for a closer look

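In 6 of 40 groups of 4 libraries (1 per gene and treatment) the highest or lowest library stood apart by Dixon's test, where chance gives about 1 in 20. The genes share the same libraries and several vary together, so the 40 tests are not independent. In 37 °C replicate D, Calr was high at 2074 CPM, and Canx and Hyou1 were low at 345.5 and 866.9 CPM. Calr in 40 °C 6 h replicate B was high at 2752 CPM. Manf in 40 °C 1 h replicate B was low at 132.9 CPM, and Sil1 in 42.5 °C replicate C was low at 19.0 CPM, from counts of 196 to 327 per library over the study.

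The response differed between heat treatments, by edgeR's test of the difference itself and with a fold of at least 1.5, for 4 members. Hspa5 was 0.93 higher on the log2 scale after 6 h than after 1 h at 40 °C, and Hsp90b1 was 0.60 higher. At 42.5 °C for 1 h against 40 °C for 6 h, Hspa5 was at -0.83, Manf at -0.76 and Sdf2l1 at -0.59. No explanation was tested for any of these.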

How the results depend on the processing

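Of 900 alternative values of single members, 826 kept direction and side of the adjusted p threshold, 53 no longer passed it (35 of them by glmTreat), 7 newly passed it and 14 changed sign. Those 14 lay between -0.07 and 0.05, none past the threshold. With all 4 controls Sdf2l1, Creld2 and Sil1 were at -0.01, -0.01 and -0.04 after 1 h at 40 °C, and Sdf2l1, Creld2 and Manf at -0.04, -0.02 and -0.07 at 42.5 °C. With single libraries left out, Sdf2l1 ran from -0.02 to 0.11 and Sil1 from -0.02 to 0.12 after 1 h at 40 °C. At 42.5 °C against 37 °C, Sdf2l1 ran from -0.06 to 0.07, Creld2 from -0.01 to 0.10 and Sil1 from -0.09 to 0.05. Between the temperatures at 1 h, Sdf2l1 ran from -0.09 to 0.01 and Creld2 from -0.04 to 0.01. The negative values of Sdf2l1, Sil1 (1 h at 40 °C) and Creld2 against 37 °C came without 37 °C replicate C, the positive ones of Sil1 at 42.5 °C without 37 °C replicate B (0.05) or 42.5 °C replicate C (0.02), and those between temperatures without 40 °C 1 h replicate A.

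After 1 h at 40 °C the number of members past the adjusted p, 1 above, was 2 by DESeq2's Wald test, 2 with no filter, 0 in 1 fit over all groups, 0 with all 4 controls and 0 to 3 with a library left out. With the replicate letter as a block it was 4 (Hspa5, Hsp90b1, Calr and Manf), where 6.04% of all genes passed in place of 1.64%. The block also took Sdf2l1 at 42.5 °C against 40 °C 6 h to -0.57, short of the fold threshold. The labels give only the letters. After subtracting group means, same-letter libraries correlated at a mean of 0.05 (-0.05 to 0.18 over 21 pairs). Libraries of different letters correlated at a mean of -0.02 (-0.22 to 0.17 over 63 pairs). The main fits did not take the letters as pairs, and whether a letter marks a shared run was not tested. At 42.5 °C against 37 °C, 6 members became 0 with all 4 controls, while all genes past the adjusted p fell to 18.2% of those tested. Tested by glmTreat against a fold of 1.5 itself, 1 member (Hspa5) remained after 6 h at 40 °C in place of 4, 0 between 6 h and 1 h in place of 2, and 0 between 42.5 °C and 40 °C 6 h in place of 3. Of all genes, glmTreat called 31, 8 and 260 in place of 326, 134 and 860. From 1 h to 6 h, leaving out a library gave 1 to 4 called. The cause of these shifts was not tested. Sil1 had the lowest counts of the members, at 196 to 327 per library, and a limit from depth was not tested.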
